A study of Mus musculus with 6 samples.

Results

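Matrix metalloproteinases (MMPs), ADAMs and their tissue inhibitors (TIMPs) were examined as a group of 10 genes in bone-marrow-derived macrophages, phagocytes grown in culture from mouse marrow precursors. The genes were taken by name, 8 proteases (Mmp9, Mmp12, Mmp13, Mmp14, Adam8, Adam9, Adam10 and Adam17) and 2 inhibitors (Timp1 and Timp2), out of 54532 entries in each deposited table, and each had a single entry. The tested cells carried a small interfering RNA against Cxcr4 (siCXCR4, 3 libraries), and the control cells a negative-control siRNA (siNC, 2 distinct libraries). All cells came from C57BL/6 mice and had received lipopolysaccharide (LPS), the bacterial ligand of TLR4, at 100 ng/ml for 12 hours, so no group without LPS was compared. The design thus asked what lowering Cxcr4 does to these genes in cells already activated by LPS.

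The labels name 3 samples per group, but the table of siNC replicate 3 held whole numbers identical to the reads of siNC replicate 2 (19072 of 19072 genes). The difference within that pair was below sampling noise, and it entered as 1 sample. Column headers start with mko in siCXCR4 tables and wt in siNC tables; the groups follow the labels. No label ties the replicates to separate mice or wells, so a p-value reflects only the spread among these libraries, possibly technical. Reads in genes numbered 18890751 to 21780840 per library. Of the siCXCR4 libraries, replicate 2 lay closer in reads to siNC replicate 1 (chi-square 4.20 per gene) than to siCXCR4 replicates 1 and 3 (6.35 and 7.95). In turn, siNC replicate 1 lay closer to siCXCR4 replicate 2 than to siNC replicate 2 (4.84). Likewise siCXCR4 replicate 3 lay closer to siNC replicate 2 (6.70) than to siCXCR4 replicate 2. The libraries thus did not part cleanly by group. Values of the 10 genes in which siCXCR4 replicate 2 stood apart are given with and without it. Macrophage markers were present throughout: the summed level of 9 such genes was 4155 to 4520 FPKM in siCXCR4 and 4292 to 4531 FPKM in siNC. FPKM scale the reads of a gene by its length and by the library total. Levels can thus be compared between genes as far as the annotated length matches the transcripts made.

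MMPs and ADAMs are zinc-dependent proteases made as inactive precursors and opened by removal of a prodomain. Secreted MMPs cut collagen, elastin and gelatin in the matrix around a cell, while membrane-bound ADAMs mostly clip, or shed, the outer parts of other membrane proteins such as TNF. TIMPs bind the active site of mature enzymes and block it, and each TIMP blocks only some of these enzymes. In macrophages this balance is known for matrix breakdown in inflamed tissue and for the release of soluble cytokines and receptors.

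The proteases are tied together by the zinc-binding signature of metzincins, in which 3 histidines hold the catalytic zinc ion. The stretch of coding sequence that spells it is shown for each protease, since it is what separates these genes from the inhibitors. The letters come from the longest coding sequence of each gene in GENCODE M21 (GRCm38), 33 bases from the first to the last histidine codon, with the 3 histidine codons in capitals.
Mmp9: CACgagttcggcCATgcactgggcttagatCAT
Mmp12: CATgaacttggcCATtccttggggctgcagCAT
Mmp13: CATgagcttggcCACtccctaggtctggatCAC
Mmp14: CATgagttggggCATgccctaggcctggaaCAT
Adam8: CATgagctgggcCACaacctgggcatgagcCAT
Adam9: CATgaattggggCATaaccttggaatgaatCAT
Adam10: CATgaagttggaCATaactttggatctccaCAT
Adam17: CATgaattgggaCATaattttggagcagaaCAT
All 8 proteases held the signature in frame, and 0 of the 2 inhibitors did. It begins at codon 401 of Mmp9, 222 of Mmp12, 223 of Mmp13, 239 of Mmp14, 329 of Adam8, 347 of Adam9, 384 of Adam10 and 424 of Adam17. The most alike pair was Adam10 and Adam17, with 26 of 33 bases identical, and the fewest, 17, were shared by Adam10 with Mmp9 and Mmp13 and by Adam17 with Mmp13. Over 21816 coding genes scanned, 69 held the signature, and 19 of these averaged at least 1 FPKM in the macrophages. The 19 include the zinc finger genes Zfp710 (22.0 FPKM) and Zfp871 (5.62 FPKM) and the respiratory chain gene Ndufb3 (14.5 FPKM). A match to the pattern thus does not by itself mark a protease.

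The highest levels belonged to 3 MMPs. Mmp13, a collagenase of fibrillar collagen, averaged 526 ± 24.4 FPKM over the 5 libraries (SD, n = 5) and stood at place 59 among 9943 genes tested. Mmp12, macrophage elastase, averaged 372 ± 35.1 FPKM, and Mmp14, a membrane-anchored collagenase that also activates pro-MMP2, 343 ± 6.90 FPKM. The ranges of Mmp12 and Mmp14 overlapped, with Mmp12 above Mmp14 in 3 of 5 libraries, while Mmp13 lay above both in every library. This order in FPKM depends on the annotated lengths, 2673 bases for Mmp13, 7237 for Mmp12 and 5960 for Mmp14. In reads Mmp12 lay above Mmp13, at 44553 to 63028 per library against 26462 to 31357. Which transcripts of Mmp12 the cells made was not tested. Together the 3 genes made up between 86.6% and 87.5% of the summed FPKM of the 8 proteases in each library.

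The sheddases and the inhibitors lay well below them. Adam17, the TNF-converting enzyme, averaged 65.1 ± 1.28 FPKM and Adam9, a sheddase of growth factor precursors, 56.4 ± 1.97 FPKM, with Adam17 higher in 5 of 5 libraries. Adam8, a leukocyte ADAM, averaged 26.0 ± 2.86 FPKM, Timp2 21.9 ± 1.86 FPKM and Adam10, the sheddase of Notch receptors and of several chemokines and adhesion molecules, 20.4 ± 1.01 FPKM. In this order the ranges of Adam8 and Timp2 overlapped, as did those of Timp2 and Adam10. Mmp9, gelatinase B, averaged 15.1 ± 2.42 FPKM and Timp1 14.1 ± 1.45 FPKM, and these did not differ beyond their spread, with Mmp9 higher in 2 of 5 libraries.

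**Figure D1:**
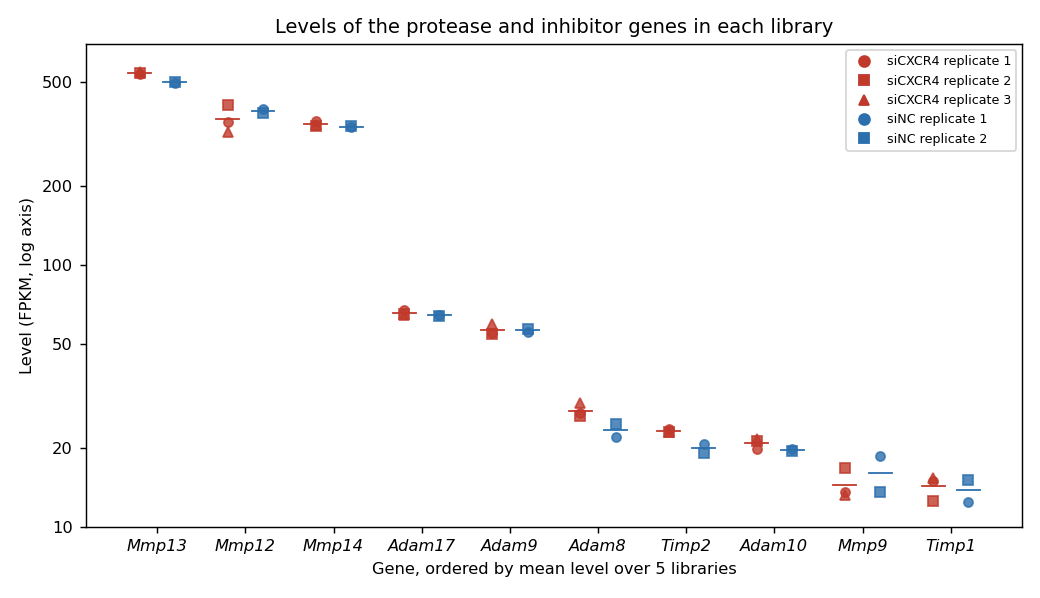
Levels of the 10 genes in FPKM on a log axis, with siCXCR4 libraries (red) left of siNC libraries (blue); symbols mark replicates and short lines the group means. Mmp13, Mmp12 and Mmp14 lie above 300 FPKM in every library, and Mmp9 and Timp1 lie lowest, at means of 15.1 and 14.1 FPKM over the 5 libraries.

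Mmp12 and Mmp13 are neighbours on chromosome 9. Mmp13 (ENSMUSG00000050578) occupies 7272514 to 7283331 and Mmp12 (ENSMUSG00000049723) 7344381 to 7369499, both on the plus strand in GRCm38. Their promoters are shown because, of 8 genes of the group with a promoter in the RefSeq table, these were the 2 with an AP-1 motif. The windows hold 250 bases before and 50 after a start site (GRCm38.p6, plus strand), with the motif in capitals; the second of the Mmp12 starts in the table, inside the gene, is the one with the motif.
Mmp12, chr9:7347124-7347423: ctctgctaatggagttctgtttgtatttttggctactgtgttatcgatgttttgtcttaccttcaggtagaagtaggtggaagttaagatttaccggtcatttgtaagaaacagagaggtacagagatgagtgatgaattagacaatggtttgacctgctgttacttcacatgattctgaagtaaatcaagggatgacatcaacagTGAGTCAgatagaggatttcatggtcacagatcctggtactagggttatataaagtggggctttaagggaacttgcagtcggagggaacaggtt
Mmp13, chr9:7272264-7272563: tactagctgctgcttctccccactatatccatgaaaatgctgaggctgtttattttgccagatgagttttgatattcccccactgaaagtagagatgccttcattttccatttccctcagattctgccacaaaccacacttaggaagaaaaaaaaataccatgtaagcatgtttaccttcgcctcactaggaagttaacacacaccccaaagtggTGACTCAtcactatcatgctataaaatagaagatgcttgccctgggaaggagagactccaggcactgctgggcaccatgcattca
The motif searched was TGANTCA, which reads the same on either strand, and it is the site bound by Fos and Jun proteins. It began 44 bases before the start in Mmp12 and 35 bases before the start in Mmp13. Of 32851 promoter windows in the table, 7.81% held it. The NF-kB motif was searched on both strands as GGG and CC set 5 bases apart. It was in 6 of the 9 windows, against 50.8% of all windows. The 6 genes were Mmp12 (in the window of its other start), Mmp14, Adam10, Adam17, Timp1 and Timp2. A match is a description of the letters and not a binding site.

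The siRNA target was examined first. Cxcr4, which encodes the CXCL12 receptor, stood at 31.1, 36.2 and 32.7 FPKM in siCXCR4 and at 41.3 and 42.1 FPKM in siNC. The highest siCXCR4 library stayed under the lowest siNC library, at means of 33.4 ± 2.62 FPKM in siCXCR4 (SD, n = 3) and 41.7 ± 0.616 FPKM in siNC (SD, n = 2), but the adjusted p was 0.457 by limma (log2 fold change -0.32, SE 0.0704). DESeq2 put it just past the threshold (adjusted p = 0.0496) and edgeR did not (adjusted p = 0.0637). By an exact two-sided permutation test p was 0.1, the smallest that 3 libraries against 2 allow.

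None of the 10 genes passed the test between siCXCR4 and siNC. By limma on log2(FPKM + 1) with Benjamini-Hochberg adjustment over all genes, 0 of 10 had an adjusted p under 0.05, and so did 0 of 9943 genes tested (0%). At an unadjusted p under 0.05 there were 3 of the 10, Mmp13, Adam8 and Timp2, all higher in siCXCR4, where 9.34% of all genes tested lay (5.8% higher and 3.54% lower in siCXCR4). In 4 of the 10, these 3 and Mmp14, the siCXCR4 values lay above both siNC values, where 27.8% of all genes did not overlap between the groups in one direction or the other (17.9% higher and 9.92% lower in siCXCR4). The median log2 fold change of the 10 genes was 0.04, against 0.01 over all genes tested. On whole reads, edgeR called 0 of the 10 at an adjusted p under 0.05, where 0.133% of all genes were called, and 2 at an unadjusted p under 0.05, Adam8 and Timp2, where 9.73% of all genes lay. DESeq2 and limma-voom each called 0 of the 10 as well, where 0.266% and 0.0938% of all genes were called. In these bulk libraries, fewer cells of a type and less RNA per cell cannot be told apart.

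**Figure D2:**
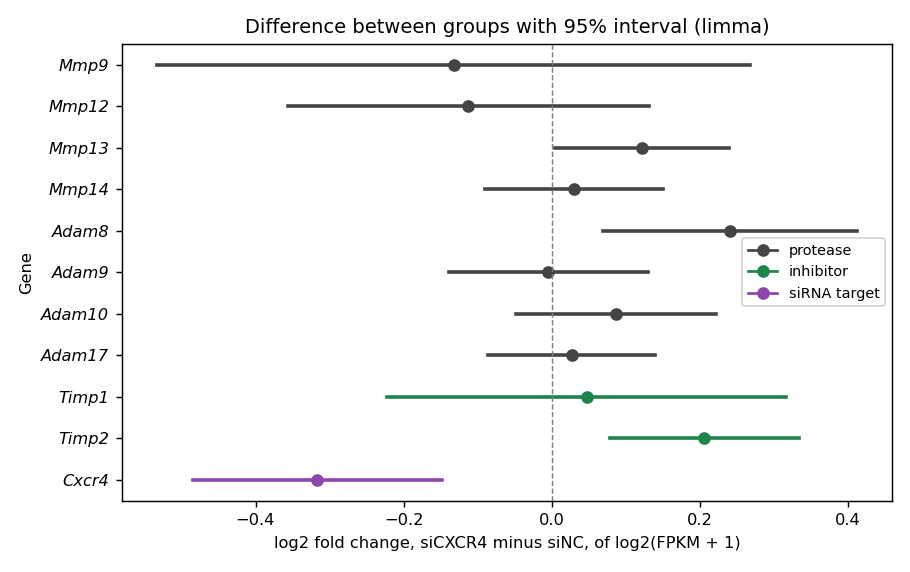
Difference of siCXCR4 from siNC in mean log2(FPKM + 1) of each gene, as a point with its 95% interval from limma; proteases are grey, inhibitors green and the siRNA target purple. The intervals of Adam8, Timp2 and Mmp13 lie above 0 before adjustment, and those of Mmp9 and Timp1 are among the widest.

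Among the secreted MMPs, Mmp13 was at 539, 544 and 549 FPKM in siCXCR4 and at 497 and 502 FPKM in siNC. The groups did not overlap, and the 3 siCXCR4 values lay within a narrow band 8.81% above siNC on average. The values rest on 26462 to 31357 reads per library. This difference, higher in 3 of 3 siCXCR4 libraries, did not pass the correction (log2 fold change 0.12, SE 0.0492, 95% interval 0.0043 to 0.24, adjusted p = 0.526 by limma).

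Mmp12 was at 353, 409 and 321 FPKM in siCXCR4 and at 395 and 383 FPKM in siNC. The groups overlapped, because siCXCR4 replicate 2 held the highest of the 5 values while siCXCR4 replicates 1 and 3 held the lowest. Mmp12 had a log2 fold change of -0.11 (SE 0.101, 95% interval -0.36 to 0.13, adjusted p = 0.739 by limma). Without siCXCR4 replicate 2 it was -0.21, with an adjusted p of 0.264 by limma, and without siCXCR4 replicate 3 it was -0.03. On the log2(FPKM + 1) scale, siCXCR4 replicate 2 lay 0.28 above the mean of the other siCXCR4 libraries for Mmp12, where the median absolute difference over all genes tested was 0.0794. With 44553 to 63028 reads per library, counting error alone gives a coefficient of variation of 0.426%, against 9.43% observed over the 5 libraries.

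Mmp9 (chromosome 2, 164940780 to 164955850, plus strand) was at 13.5, 16.8 and 13.2 FPKM in siCXCR4 and at 18.6 and 13.6 FPKM in siNC. The highest siNC and siCXCR4 values stood together above the rest, so the groups overlapped. The siNC libraries differed from each other by 0.43 on the log2(FPKM + 1) scale. Mmp9 had a log2 fold change of -0.13 (SE 0.159, 95% interval -0.53 to 0.27, adjusted p = 0.812 by limma). Its sign turned without siNC replicate 1 (0.081), while it was -0.35 without siNC replicate 2 and -0.23 without siCXCR4 replicate 2. MMP9 is also stored in neutrophil granules. The summed level of 10 neutrophil markers was 85.4 to 100.3 FPKM in siCXCR4 and 106 to 109 FPKM in siNC, with 5 of the 10 at a mean of at least 1 FPKM. S100a9 was at 37.7 to 46.2 FPKM in siCXCR4 and 52.5 to 52.9 FPKM in siNC, and S100a8 at 10.7 to 13.3 FPKM in siCXCR4 and 15.4 to 18.2 FPKM in siNC. The granule genes Ngp, Camp and Ltf were also present, and their groups overlapped. Ngp was at 27.4 to 34.5 FPKM in siCXCR4 and 29.2 to 29.8 FPKM in siNC. Camp was at 4.27 to 5.10 FPKM in siCXCR4 and 5.02 to 5.56 FPKM in siNC. Ltf was at 2.02 to 2.89 FPKM in siCXCR4 and 2.59 to 2.65 FPKM in siNC. Mmp8 overlapped as well, at 0.644 to 1.12 FPKM in siCXCR4 and 0.579 to 0.711 FPKM in siNC. The other markers, Ly6g, Mpo, Elane and Cxcr2, stayed at or below 0.162 FPKM in every library. The part of these markers in the Mmp9 values was not tested.

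Mmp14 (chromosome 14, 54431612 to 54445364, plus strand) was at 355, 339 and 343 FPKM in siCXCR4 and at 338 and 339 FPKM in siNC. The lowest siCXCR4 value and the highest siNC value were equal to 3 digits, so the lack of overlap between the groups rests on a difference within counting error. Between the groups its log2 fold change was 0.03 (SE 0.0505, 95% interval -0.09 to 0.15, adjusted p = 0.873 by limma). Mmp14 varied by 2.01% over the 5 libraries.

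**Figure D3:**
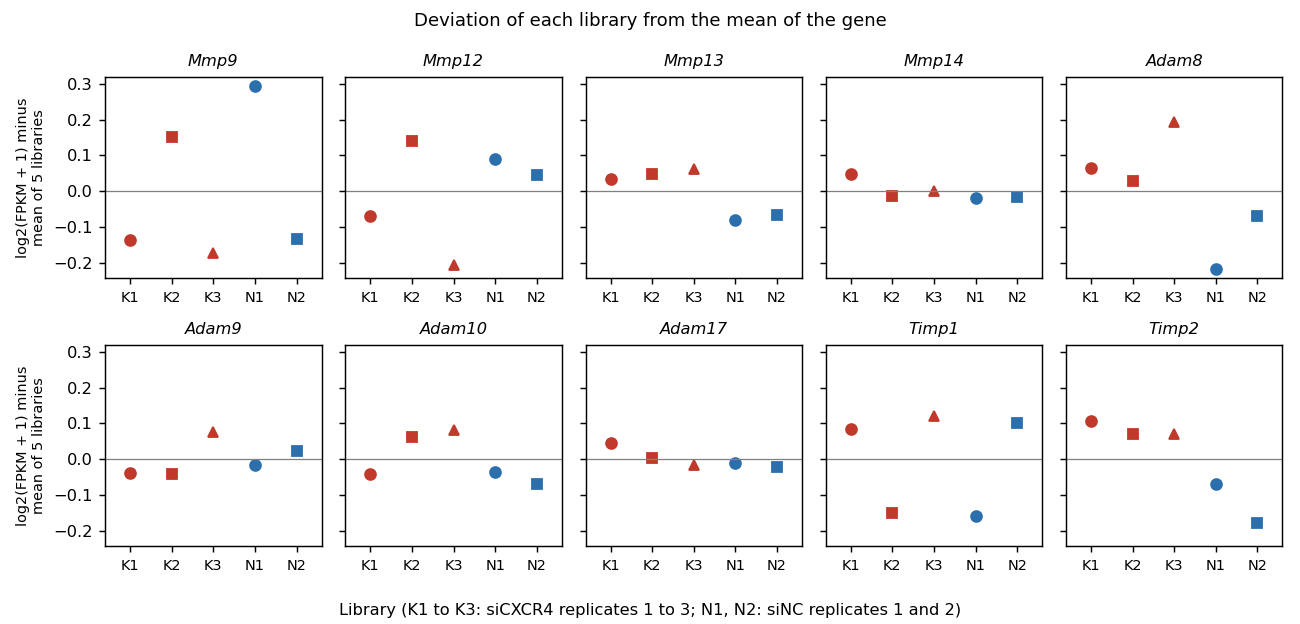
Deviation of each library from the mean of the 5 libraries, in log2(FPKM + 1), for the 10 genes; K1 to K3 are siCXCR4 replicates 1 to 3 and N1 and N2 siNC replicates 1 and 2. For Mmp13, Adam8 and Timp2 the siCXCR4 points lie above the siNC points, while for Mmp9, Mmp12 and Timp1 siCXCR4 replicate 2 (K2) lies apart from K1 and K3.

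Among the ADAMs, Adam8 (ENSMUSG00000025473, chromosome 7, 139978932 to 139992562, minus strand) had the largest difference of the 10 genes. It was at 27.1, 26.5 and 29.8 FPKM in siCXCR4 and at 22.1 and 24.6 FPKM in siNC. All 3 siCXCR4 values lay above both siNC values, with a mean 18.9% higher. It did not pass the test (log2 fold change 0.24, SE 0.0721, 95% interval 0.07 to 0.41, adjusted p = 0.494 by limma and 0.242 by edgeR). Without siCXCR4 replicate 2 edgeR called it (log2 fold change 0.27, adjusted p = 0.0332), in a fit that called 2.45% of all genes. Over 25 alternatives the value of Adam8 lay between 0.16 and 0.31, with adjusted p from 0.0332 to 0.924.

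Adam10 was at 19.8, 21.4 and 21.7 FPKM in siCXCR4 and at 19.9 and 19.4 FPKM in siNC. Of the siCXCR4 libraries, 2 of 3 lay above both siNC libraries, and the groups overlapped through siCXCR4 replicate 1. Adam10 had a log2 fold change of 0.09 (SE 0.0565, 95% interval -0.05 to 0.22, adjusted p = 0.661 by limma).

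Adam17 was at 67.2, 65.2 and 64.3 FPKM in siCXCR4 and at 64.6 and 64.1 FPKM in siNC. It varied least of the 10 genes, by 1.97% over the 5 libraries. Its log2 fold change was 0.03 (SE 0.0473, 95% interval -0.09 to 0.14, adjusted p = 0.876 by limma). Adam17 shares 311 exon bases with Iah1, a gene on the opposite strand. Adam17 averaged 9513 reads and Iah1 753, and no source used here says whether counting used strand, so reads in the shared bases cannot be assigned.

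Adam9 was at 54.8, 54.7 and 59.4 FPKM in siCXCR4 and at 55.7 and 57.2 FPKM in siNC. The siCXCR4 values lay on either side of the siNC values. Its log2 fold change was -0.0045, and the 95% interval of -0.14 to 0.13 leaves room for a difference on either side (SE 0.0562, adjusted p = 0.988 by limma).

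Of the inhibitors, Timp2 (ENSMUSG00000017466, chromosome 11, 118301069 to 118355740, minus strand), which inhibits MMPs and also helps MMP14 to activate pro-MMP2, had the lowest p of the 10 genes. It was at 23.6, 23.0 and 23.0 FPKM in siCXCR4 and at 20.8 and 19.2 FPKM in siNC. The siCXCR4 values lay close together and above both siNC values, with a mean 16.1% higher. Timp2 stood at place 136 by p among 9943 genes and did not pass the test (log2 fold change 0.21, SE 0.0533, 95% interval 0.08 to 0.33, adjusted p = 0.486 by limma and 0.283 by edgeR). Over 25 alternatives it lay between 0.15 and 0.26, and the adjusted p was under 0.05 in 0 of them.

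Timp1 (chromosome X, 20870166 to 20874735, plus strand), an inhibitor of MMP9 and of ADAM10, was at 14.9, 12.6 and 15.4 FPKM in siCXCR4 and at 12.5 and 15.1 FPKM in siNC. A low and a high set of libraries each held both groups, so the groups overlapped fully. Timp1 had a log2 fold change of 0.05 (SE 0.111, 95% interval -0.22 to 0.32, adjusted p = 0.914 by limma), and it was 0.13 without siCXCR4 replicate 2, -0.084 without siNC replicate 1 and 0.18 without siNC replicate 2. Timp1 rests on 216 to 289 reads per library, the fewest of the 10 genes, for which counting error alone gives a coefficient of variation of 6.26%, against 10.3% observed. Timp1 lies within Syn1, which runs on the opposite strand, shares no exon bases with it and averaged 70.6 reads, where Timp1 averaged 255.

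Proteases were then set against inhibitors as log2 ratios of FPKM within a library, in which any scaling between libraries cancels. These ratios are given per library without a test. Mmp14 to Timp2 was at 3.91, 3.88 and 3.90 in siCXCR4 and at 4.02 and 4.14 in siNC, so it was lower in all 3 siCXCR4 libraries, by 0.19 on average. Adam17 to Timp2 was at 1.51, 1.51 and 1.48 in siCXCR4 and at 1.64 and 1.74 in siNC, also lower in all 3. Whether TIMP2 blocks ADAM17 was not tested, so this ratio compares RNA levels only. Timp2 is in both ratios, and Mmp14 and Adam17 themselves differed by 2.10% and 1.94% in mean, so both ratios carry the Timp2 difference.

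Mmp9 to Timp1 was at -0.14, 0.42 and -0.22 in siCXCR4 and at 0.58 and -0.16 in siNC, with overlapping groups. The difference of means was -0.19, and -0.39 without siCXCR4 replicate 2. The libraries with the higher ratio, siCXCR4 replicate 2 and siNC replicate 1, had both high Mmp9 and low Timp1. Mmp12, Mmp13 and Adam10 set against Timp1 overlapped between the groups as well. The summed proteases were at 1429, 1477 and 1401 FPKM in siCXCR4 and at 1411 and 1403 FPKM in siNC, and the summed inhibitors at 38.5, 35.5 and 38.3 FPKM in siCXCR4 and at 33.2 and 34.3 FPKM in siNC. Their log2 ratio was 5.26 ± 0.101 in siCXCR4 (SD, n = 3) and 5.38 ± 0.0396 in siNC (SD, n = 2), with overlap through siCXCR4 replicate 2. The difference of means was -0.12, and -0.18 without that library.

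**Figure D4:**
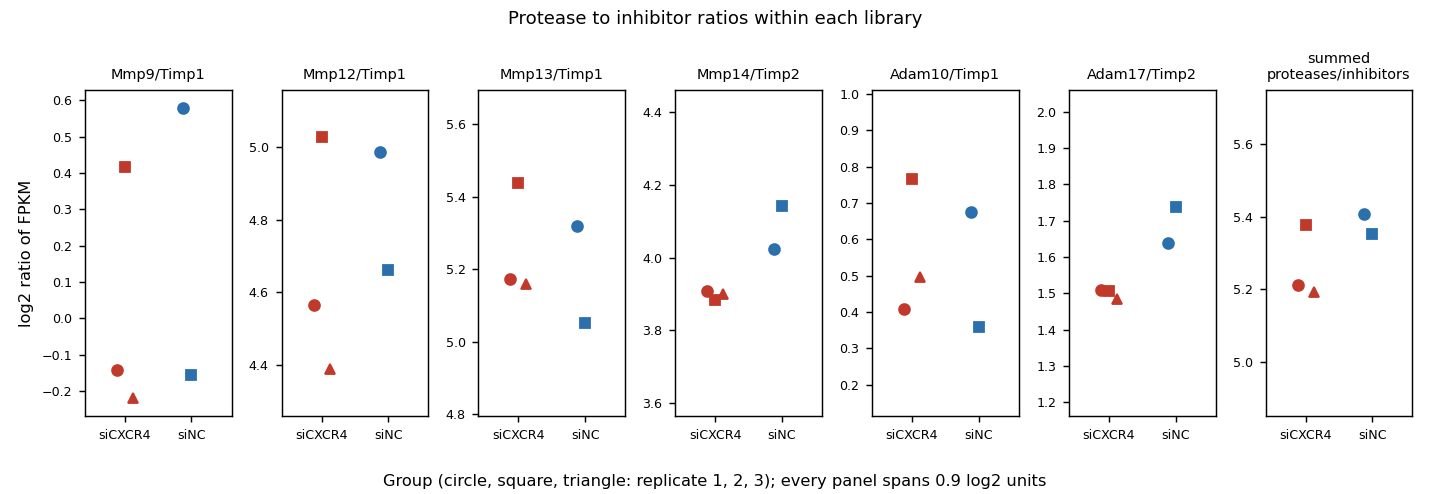
Log2 ratio of protease to inhibitor FPKM in each library, siCXCR4 (red) left of siNC (blue), with symbols for replicates and panels of equal height. Only the panels with Timp2 alone as denominator, Mmp14/Timp2 and Adam17/Timp2, show groups that do not overlap, with siCXCR4 points at 3.88 to 3.91 and 1.48 to 1.51, under the siNC points.

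The rest of the families was mostly silent. Of 19 other MMP genes, 3 averaged at least 1 FPKM: Mmp19, at 10.9 FPKM in siCXCR4 and 10.6 FPKM in siNC on average, Mmp25 and Mmp27. Mmp1a, Mmp7, Mmp15 and Mmp20 were listed at 0 in every library. Of 15 other ADAM and ADAMTS genes, 3 were measured, with Adam15 highest at 13.4 FPKM in siCXCR4 and 12.7 FPKM in siNC, followed by Adamts10 and Adam33. Among these 6 genes, 0 had an unadjusted p under 0.05 in limma. Of 12 other protease inhibitors 6 were measured, 5 of them below 0 in log2 fold change, with a median of -0.11. The most abundant was Cst3, cystatin C, at 414 FPKM in both groups. Serpinb2, an inhibitor of urokinase, was at 19.1, 23.1 and 17.9 FPKM in siCXCR4 and at 27.3 and 23.2 FPKM in siNC (unadjusted p = 0.0354 and adjusted p = 0.512 by limma). These values were lower in all 3 siCXCR4 libraries, the opposite side from Timp2. The lack of overlap is slight, with siCXCR4 replicate 2 at 23.1 FPKM and siNC replicate 2 at 23.2 FPKM. Timp4 and A2m were listed at 0 in every library.

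Of 15 genes for proteins that carry or process ADAM10, ADAM17 and MMP14, 10 were measured, with log2 fold changes from -0.10 to 0.08 and 0 at an unadjusted p under 0.05 in limma. Rhbdf2, which encodes iRhom2, the escort of ADAM17 in macrophages, was at 48.1, 47.4 and 49.1 FPKM in siCXCR4 and at 45.3 and 47.5 FPKM in siNC. Frmd8, which stabilises iRhoms, was at 16.3, 16.9 and 17.5 FPKM in siCXCR4 and at 16.2 and 15.7 FPKM in siNC. Furin, which cleaves the prodomains of ADAMs and MMP14, averaged 14.0 FPKM in siCXCR4 and 13.2 FPKM in siNC.

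Of 9 plasminogen activation genes 7 were measured, 1 higher and 1 lower in siCXCR4 at an unadjusted p under 0.05 in limma. Over all genes tested, 5.8% were higher and 3.54% lower at that threshold. Plau, urokinase, which makes plasmin from plasminogen, was at 98.9, 95.7 and 97.5 FPKM in siCXCR4 and at 89.7 and 89.7 FPKM in siNC (adjusted p = 0.526 by limma). The lower gene was Serpinb2. Of 24 genes for shed substrates 20 were measured, split evenly by sign (10 above and 10 below 0). By unadjusted p under 0.05 in limma 3 were higher in siCXCR4 and 1 lower, where 5.8% and 3.54% of all genes tested lay. After adjustment 0 passed. The groups did not overlap in 8 of the 20 (4 higher and 4 lower in siCXCR4), where 27.8% of all genes did not. Hbegf, a precursor of an EGF receptor ligand, was at 7.08, 6.63 and 6.53 FPKM in siCXCR4 and at 8.38 and 7.93 FPKM in siNC. Selplg, the P-selectin ligand, and Tnfrsf1a, a TNF receptor, lay at 0.22 and 0.14 in log2 fold change (SE 0.0679 and 0.0547). Among 15 matrix genes 5 were measured, with a median of 0.14, and Thbs1, thrombospondin, averaged 30.6 FPKM in siCXCR4 and 25.7 FPKM in siNC (adjusted p = 0.504 by limma). Of 9 LPS response genes 7 lay below 0, as did 4336 of the 9943 genes tested. The groups did not overlap in 2 of the 9, Il1b and Ptgs2, both lower in siCXCR4, where 27.8% of all genes did not overlap. Il1b, the interleukin-1 beta gene, was at 1626 ± 210 FPKM in siCXCR4 (SD, n = 3) and 2083 ± 129 FPKM in siNC (SD, n = 2), with an adjusted p of 0.494 by limma. Nos2, inducible nitric oxide synthase, lay on the other side, at 240 ± 24.0 FPKM in siCXCR4 (SD, n = 3) and 199.7 ± 29.2 FPKM in siNC (SD, n = 2), with an adjusted p of 0.549 by limma. For Nos2 the groups overlapped, with siCXCR4 replicate 2 at 215 FPKM and siNC replicate 2 at 220 FPKM.

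**Figure D5:**
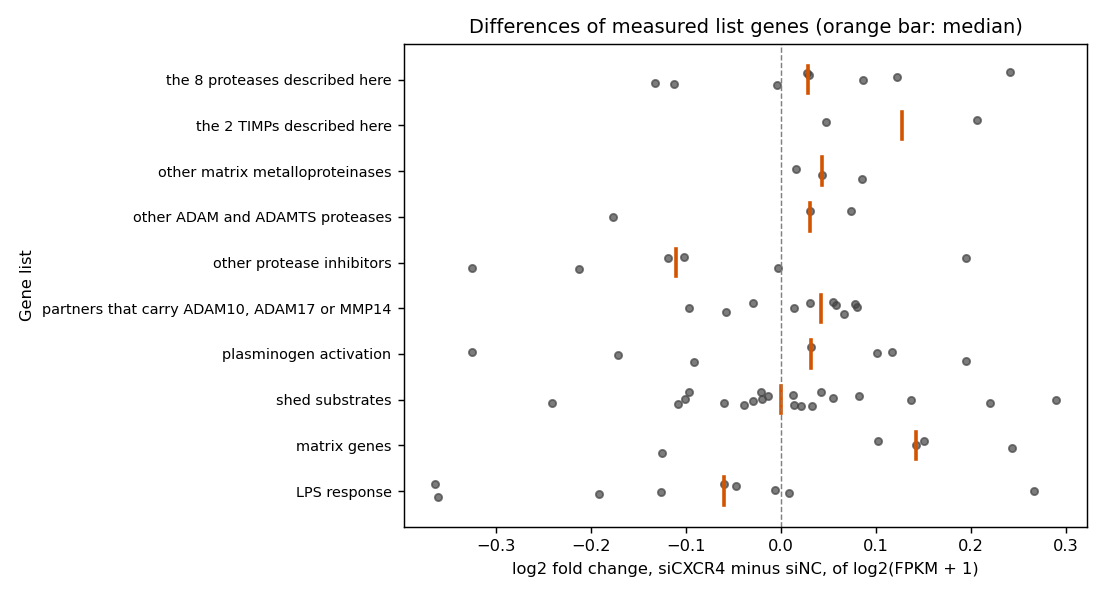
Difference of siCXCR4 from siNC in mean log2(FPKM + 1) for each measured gene of the protease, inhibitor, partner, substrate, matrix and LPS response lists; each point is a gene and the orange bar the median. No point passed an adjusted p of 0.05, and the partner proteins span the range from -0.10 to 0.08.

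By pattern over the 5 libraries, the genes most like Adam8 were Bid, Fnip2 and Chst11, in a comparison of 5559 genes averaging 5 FPKM or more. The likeness was the root mean square difference of log2(FPKM + 1) values centred on the mean of each gene, at 0.0193, 0.0203 and 0.0209, against a median of 0.139 over all genes compared. The genes most like Timp2 were Urgcp, Tnfrsf11a, which encodes the receptor RANK, and Ccdc71, at 0.0160, 0.0176 and 0.0177, against a median of 0.110.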

How the data were processed

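Total RNA was sequenced from 6 labelled samples. In 5 tables the authors deposited FPKM (or RPKM, which cannot be told apart here); this was worked out from the values, since FPKM multiplied by gene length came in whole steps, 1 size per library, for 100% of values (tolerance 0.05). The table of siNC replicate 3 held deposited whole-number counts. The submitters' processing notes name mm9, but 98.3% of positions matched the GRCm38 annotation, whose coordinates are given. No source used here gives the aligner, the counter or the filters.

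The test was limma 3.58.1 (R 4.3.3, trend and robust) on log2(FPKM + 1), two-sided, for genes averaging 1 FPKM or more, adjusted by Benjamini-Hochberg at a threshold of 0.05, siCXCR4 (3 libraries) against siNC (2 libraries). Whole reads worked back from FPKM went into edgeR 4.0.16 (TMM, quasi-likelihood), DESeq2 1.42.0 and limma-voom as alternatives. The limma and edgeR fits, and not those of DESeq2 or limma-voom, were tested on simulated data with planted changes. The median half-width of a 95% interval was 0.171 in log2. Counting errors cover counting only, as the labels name no molecular identifiers that would separate PCR copies.

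The 10 genes and all lists were chosen with earlier results of these data known. Named are the 10 genes, Cxcr4, up to 4 genes of lowest p and the most abundant gene per list, and the 3 genes most like the protease and the inhibitor of lowest p. Genes listed at 0, the overlapping genes Iah1 and Syn1, and the neutrophil markers other than S100a9 fall outside this rule and were chosen after their values were seen. Markers of fibroblasts, dendritic cells and lymphocytes summed to 11.5 to 13.5, 4.72 to 5.49 and 0 to 0.197 FPKM in siCXCR4 and to 13.3 to 15.3, 5.17 to 5.18 and 0.155 to 0.313 FPKM in siNC, with Siglech at 0, and osteoclast markers to 525 to 558 FPKM in siCXCR4 and 527 to 534 FPKM in siNC. Single values of some list genes are not reported here.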

Additional observations from a re-analysis of the deposited data

How the results depend on the processing

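Of the 10 genes, limma called 0 under each setting tried, left-out libraries included; DESeq2 and limma-voom, run only on all 5 libraries, also called 0. Adam8 without siCXCR4 replicate 2 in edgeR was the only call (1 gene). Over all genes, 6 were called when the copy was counted as a siNC replicate, 17 by edgeR, 34 by DESeq2 and 12 by limma-voom. With libraries left out, limma called 0 to 2 genes, and edgeR 0, 312 and 3 without siCXCR4 replicates 1, 2 and 3 and 5 and 20 without siNC replicates 1 and 2. Cxcr4 was called by DESeq2 (-0.34, adjusted p = 0.0496) and by edgeR without siCXCR4 replicate 2 (-0.40, adjusted p = 0.00104), and lay between -0.38 and -0.27 with libraries left out of limma. Its adjusted p ran from 0.00104 to 0.866 over 25 alternatives.

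Signs turned for Adam17 when scaled to reads in listed genes (-0.00059) and, with libraries left out of limma, for Mmp9 (range -0.35 to 0.081), Adam9 (-0.043 to 0.016) and Timp1 (-0.084 to 0.18). In edgeR they turned for Mmp14 (-0.0059) and Adam17 (-0.0075) without siCXCR4 replicate 1, Timp1 without siCXCR4 replicate 3 (-0.017) and siNC replicate 1 (-0.10), Mmp9 without siNC replicate 1 (0.075) and Adam9 without siNC replicate 2 (0.0015). With libraries left out, the log2 ratio differences ranged from -0.24 to -0.13 for Mmp14 to Timp2, -0.24 to -0.14 for Adam17 to Timp2, -0.35 to -0.0014 for Mmp12 to Timp1 and -0.18 to -0.086 for the sums. They turned sign for Mmp9 to Timp1 (-0.56 to 0.18), Mmp13 to Timp1 (-0.063 to 0.20) and Adam10 to Timp1 (-0.12 to 0.198). On whole reads in place of FPKM the summed ratio difference was -0.196. The causes were not tested. Leaving out 1 library gave 5 to 6 of the 10 genes without overlap, where 37.3% to 55% of all genes did not overlap. These overlap counts and the edgeR fits with libraries left out were added after the data were seen.

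With the replicate number as a block, 0 genes were called and Timp1 was at -0.0037. In that fit siCXCR4 replicate 3 has no siNC partner, so the differences equal those without siCXCR4 replicate 3. The deviations of same-numbered libraries had correlations of -0.04 and -0.11 for the 2 pairs. With 2 siNC libraries, the deviation of one is the mirror of the other. Neither the block nor these correlations can therefore show whether same-numbered libraries are pairs, and no pairing was assumed. Depth limits Timp1 most.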
